A study of Mus musculus with 8 samples.

Results

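Fibronectin and 9 secreted proteins that act around the cell were followed in brain endothelial cells (ECs) of mice with an endothelial *Map2k1* mutation. The 10 genes are *Fn1*, *Sparc*, *Sparcl1*, *Spp1*, *Tnc*, *Thbs1*, *Thbs2*, *Postn*, *Mmrn1* and *Mmrn2*. They were taken from a list of gene symbols, and all 10 were found among the 49315 genes of the deposited counts. One RNA sequencing library per pup was made, from 4 mutants and 4 wild-type animals matched to them by litter, using cells that were pulled from the whole brain with beads against the surface protein CD31. Mutant pups carried the alleles R26 GT-Map2k1-GFP/+ and Tg-Cdh5CreER+/-, in strains backcrossed to C57BL/6J. After recombination a CAG promoter at the *Rosa* locus drives a *Map2k1* K57N cDNA in ECs, because the *Cdh5* promoter confines the Cre recombinase to that cell type. All pups, wild type included, received tamoxifen at postnatal day 1, and the cells were taken at day 9. Recombination reached only a minority of the ECs, so each value from mutant libraries is that of a mixture in which most cells lack the recombined allele, and "mutant ECs" stands for that mixture. In addition, the mutation, the raised *Map2k1* level, the Cre recombinase and the GFP encoded by the recombined allele come together in these pups. Their effects cannot be told apart.

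Fibronectin is a large adhesive glycoprotein that cells assemble into fibrils through integrins, and vessels rely on it during growth. Matricellular proteins are secreted into the same matrix but mainly alter how cells attach, move and receive growth factors. In the brain, SPARC and its relative SPARCL1 are abundant products of ECs and glia, thrombospondins restrain angiogenesis, and multimerin-2 coats the endothelial surface.

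The 8 libraries held between 24833373 and 34196955 counts on genes. *Map2k1* was 9.07-fold higher in mutant than in wild-type ECs, with no overlap between the groups, which checks the labels. All 10 endothelial markers were detected, and their summed level was 3152 to 3795 RPKM (reads per kilobase of exon, scaled to library size) in mutant and 3205 to 4040 RPKM in wild-type libraries. Of the 10, *Cdh5* (log2 fold change 1.11) and *Pecam1*, the gene of CD31 (0.53), were higher in mutant ECs (edgeR quasi-likelihood test, adjusted p under 0.05). *Cldn5* (-0.47), *Kdr* (-0.59) and *Tek* (-0.44) were lower, and the other 5 did not pass the test. Markers of other cells were present at lower levels. The sums for mutant and wild-type libraries were 165 to 281 and 155 to 286 RPKM for pericytes, 39.6 to 93.8 and 45.2 to 98.8 for smooth muscle, and 135 to 174 and 115 to 154 for fibroblasts. They were 83.6 to 313 and 83.3 to 300.3 RPKM for microglia, 14.8 to 48.0 and 9.04 to 27.8 for border macrophages, and 5.74 to 11.0 and 5.68 to 9.72 for platelets. In 4 lists the groups did not overlap. Oligodendrocyte markers summed to 4.89 to 11.1 RPKM in mutant and 17.7 to 48.7 in wild-type libraries, and all 7 fell (edgeR quasi-likelihood test, adjusted p under 0.05). Neuron markers summed to 4.02 to 6.11 and 7.17 to 21.6 RPKM, and 5 of 7 fell. Astrocyte markers summed to 199.9 to 239.9 RPKM in mutant and 116 to 138 in wild-type libraries, of which *Gja1*, a connexin that ECs also make, gave 211 and 121 on average, while *Aldh1l1* fell and the other 6 did not pass the test. Lymphatic markers summed to 40.6 to 67.0 and 37.2 to 39.4 RPKM, of which *Flt4*, also made by other ECs, gave 47.3 and 34.8 on average and alone passed the test, while *Ccl21a* was at 0 in every library.

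Of the 10 genes, all of which passed the filter on low counts, 6 were higher in mutant ECs at an adjusted p under 0.05 and 1 was lower (quasi-likelihood test of edgeR, p-values adjusted after Benjamini and Hochberg over all 16887 genes tested). Over all genes tested, 21.5% were higher and 22.9% lower by the same rule. *Tnc*, *Thbs1*, *Mmrn1* and *Spp1* also passed a log2 fold change of 1, as 5.90% of all genes did in that direction. *Postn* and *Mmrn2* rose by less, and *Thbs2* fell by less than that limit (8.05% of all genes fell past it). *Fn1*, *Sparc* and *Sparcl1*, the most abundant of the 10, did not pass the test. The ranges of both groups were separate for 7 of the 10 genes, against 42.5% of all genes tested. The median log2 fold change was 0.63 over the 10 genes and -0.02 over all genes tested.

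**Figure D1:**
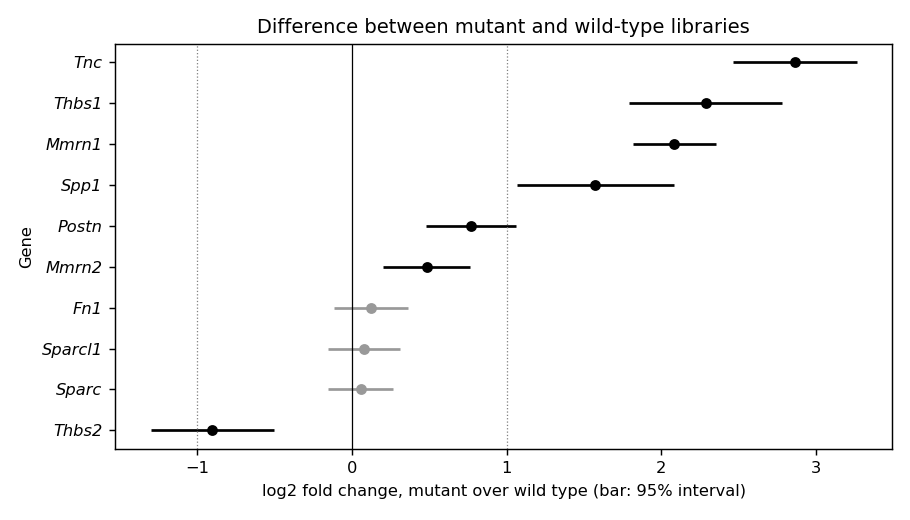
Log2 fold change of each gene, mutant over wild type, from edgeR (x axis), with its 95% interval, over 4 mutant and 4 wild-type libraries. Black marks an adjusted p under 0.05 and grey the others, and dotted lines mark a log2 fold change of 1 in either direction. *Tnc* stands highest at 2.86, *Thbs2* lowest at -0.90, and the intervals of *Fn1*, *Sparcl1* and *Sparc* include 0.

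The stretch before the start of transcription is shown for 4 of the genes that differed, *Tnc*, *Spp1* and *Postn* (higher) and *Thbs2* (lower), because their RefSeq start lies at or within a few bases of the 5′ end of the annotated gene. Each line gives the 250 bases before the start, 5′ to 3′ on the gene's own strand, from RefSeq on build GRCm38.p6. None of these bases belongs to a counted exon of that gene. Capitals mark TATAAA, a core promoter element, and CCAAT, the box bound by NF-Y, read on either strand (TTTATA and ATTGG on the other strand). The windows are chr4:64047016-64047265 (minus strand) for *Tnc*, chr5:104434861-104435110 (plus) for *Spp1*, chr3:54360857-54361106 (plus) for *Postn* and chr17:14694263-14694512 (minus) for *Thbs2*.
Tnc: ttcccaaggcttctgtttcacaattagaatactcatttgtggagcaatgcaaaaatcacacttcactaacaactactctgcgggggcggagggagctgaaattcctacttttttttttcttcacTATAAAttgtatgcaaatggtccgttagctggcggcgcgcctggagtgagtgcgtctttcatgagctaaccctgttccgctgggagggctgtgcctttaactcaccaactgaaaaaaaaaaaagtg
Spp1: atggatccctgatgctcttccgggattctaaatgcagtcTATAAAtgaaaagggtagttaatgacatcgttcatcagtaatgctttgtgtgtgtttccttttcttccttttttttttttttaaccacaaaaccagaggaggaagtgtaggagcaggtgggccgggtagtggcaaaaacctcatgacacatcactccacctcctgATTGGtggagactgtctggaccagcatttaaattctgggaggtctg
Postn: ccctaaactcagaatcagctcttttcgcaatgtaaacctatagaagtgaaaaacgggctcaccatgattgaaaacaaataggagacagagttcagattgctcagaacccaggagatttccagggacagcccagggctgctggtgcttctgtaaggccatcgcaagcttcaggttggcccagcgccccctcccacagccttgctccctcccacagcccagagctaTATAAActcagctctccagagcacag
Thbs2: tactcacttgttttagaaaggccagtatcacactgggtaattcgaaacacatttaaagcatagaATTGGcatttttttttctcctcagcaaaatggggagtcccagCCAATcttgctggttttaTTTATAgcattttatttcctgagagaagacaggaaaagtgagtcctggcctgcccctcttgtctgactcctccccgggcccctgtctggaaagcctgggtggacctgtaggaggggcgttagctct

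The letters TATAAA begin 26 bases before the start of *Postn*, and 126 and 211 bases before those of *Tnc* and *Spp1*. For *Thbs2* the match is on the other strand (TTTATA as printed) and begins 126 bases before the start. RefSeq promoters of 300 bases (250 before and 50 after a start) were at hand for 6 of the 10 genes, with 9 starts in all. Read on either strand, TATAAA lay in 5 of the 9 and in 13.6% of all 32851 promoters of that length. CCAAT lay in 4 of the 9 and in 37.4% of all. TGANTCA, the letters bound by AP-1, were in none of the 9 windows and in 7.81% of all promoters. These counts describe letters in a short window, and both windows of *Tnc* overlap and share the same TATAAA.

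*Sparc*, *Fn1* and *Sparcl1* stood at or above percentile 99.8 of the levels of all genes tested in wild-type ECs, and *Thbs2*, the lowest of the 10, at percentile 48.4. On the RPKM scale, which allows levels of different genes to be compared, *Sparc* averaged 1361 ± 96.0 RPKM (SD, n = 4) in wild-type and 1416 ± 135 (SD, n = 4) in mutant ECs, followed by *Fn1* (712 ± 69.6 and 776 ± 87.8) and *Sparcl1* (587 ± 46.2 and 619 ± 78.5). *Mmrn2* came next at 88.2 ± 9.73 RPKM in wild-type and 123 ± 20.4 in mutant ECs. The 10 genes together took 1.47% to 1.65% of the counts of wild-type libraries and 1.60% to 1.82% of those of mutant libraries. *Sparc*, *Fn1* and *Sparcl1* held 96.1% to 96.8% of these counts in wild-type and 90.8% to 93.5% in mutant libraries.

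In wild-type ECs the next 6 genes lay close to each other, from *Mmrn1* at 8.06 ± 0.891 RPKM (SD, n = 4) through *Thbs1* (7.05 ± 2.39), *Tnc* (6.39 ± 0.710), *Spp1* (5.76 ± 1.31) and *Postn* (3.85 ± 0.683) down to *Thbs2* (3.09 ± 0.228). Each gene in that stretch overlapped with its neighbour, so neighbours cannot be ranked. Genes further apart did separate, since *Mmrn1* lay above *Tnc*, *Spp1*, *Postn* and *Thbs2* in every wild-type library, *Thbs1* and *Tnc* above *Postn* and *Thbs2*, and *Spp1* above *Thbs2*. In mutant ECs the same genes spread apart, with *Tnc* at 46.4 ± 13.1 RPKM (SD, n = 4), *Thbs1* at 34.4 ± 6.40, *Mmrn1* at 34.2 ± 5.31, *Spp1* at 17.1 ± 5.40, *Postn* at 6.57 ± 0.740 and *Thbs2* at 1.65 ± 0.495. There *Tnc*, *Thbs1* and *Mmrn1* still overlapped with their neighbours, whereas *Spp1*, *Postn* and *Thbs2* were each below the gene above them in every library. *Fn1* and *Sparcl1* overlapped in both groups.

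**Figure D2:**
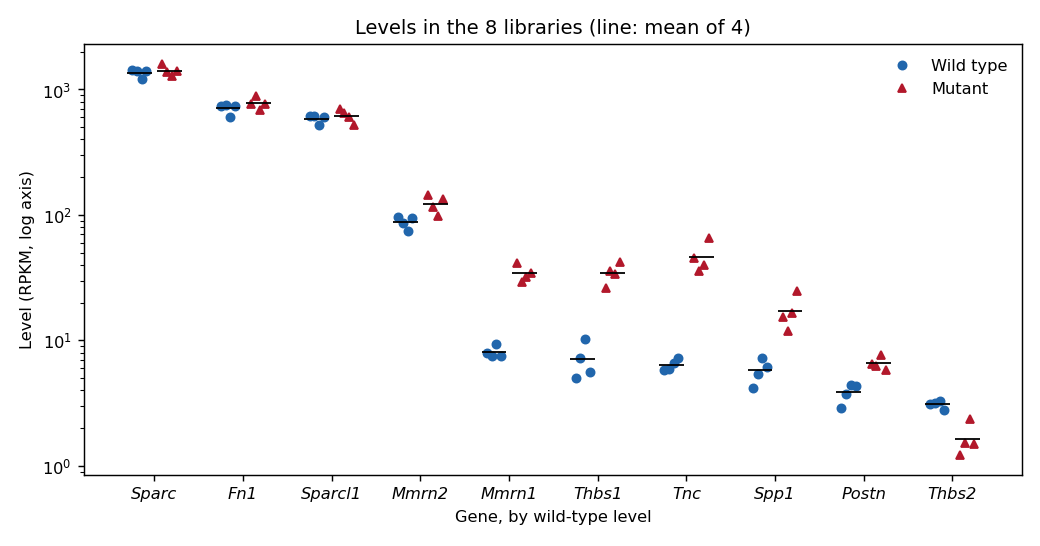
Level of each gene in RPKM (y axis, log scale) in the 4 wild-type libraries (circles) and the 4 mutant libraries (triangles), with genes ordered by their wild-type level and lines at the group means. *Sparc*, *Fn1* and *Sparcl1* lie between 518 and 1609 RPKM in all libraries, and the mutant points of *Mmrn1*, *Thbs1*, *Tnc* and *Spp1* lie above all their wild-type points.

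*Fn1* (ENSMUSG00000026193) encodes fibronectin and lies on chromosome 1 of GRCm38 from 71585520 to 71653200, on the minus strand. Counts normalized to the mean library size were 267281, 309713, 235970 and 263280 in mutant libraries 1 to 4, and 258290, 261031, 210917 and 258056 in wild-type libraries 1 to 4. The groups overlapped, since mutant 3 fell below 3 of the wild-type libraries. The log2 fold change was 0.12 (standard error 0.11, 95% interval -0.12 to 0.36, edgeR adjusted p = 0.384), so a change as large as that of *Mmrn2* lies outside the interval. Wild type 3 was the lowest of all 8, and the log2 fold change was 0.06 without it. The counts cover the gene as a whole and do not separate its splice forms.

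*Sparc* (ENSMUSG00000018593), on chromosome 11 from 55394500 to 55423183, encodes a collagen-binding glycoprotein secreted by growing vessels. Its normalized counts were 180883, 154191, 145303 and 156570 in mutant libraries 1 to 4 and 159484, 157490, 136888 and 158271 in wild-type libraries 1 to 4. Only mutant 1 stood above the wild-type range. The log2 fold change was 0.06 (standard error 0.09, 95% interval -0.15 to 0.27, edgeR adjusted p = 0.648), and its sign turned with upper quartile scaling.

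*Sparcl1* (ENSMUSG00000029309), also called hevin, lies on chromosome 5 from 104079111 to 104113733 and encodes a close relative of SPARC. Mutant libraries 1 to 4 had 61374, 56520, 52740 and 45149 normalized counts and wild-type libraries 1 to 4 had 53475, 53308, 45114 and 52654. Mutants 1 and 2 were above all wild-type libraries, and mutants 3 and 4 were within the wild-type range. The log2 fold change was 0.08 (standard error 0.11, 95% interval -0.16 to 0.31, edgeR adjusted p = 0.579).

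*Tnc* (ENSMUSG00000028364), on the minus strand of chromosome 4 from 63959785 to 64047015, encodes tenascin-C, a protein of embryonic, injured and tumor matrix that weakens adhesion to fibronectin. Its normalized counts were 10435, 8248, 9146 and 15025 in mutant libraries 1 to 4 and 1330, 1354, 1529 and 1680 in wild-type libraries 1 to 4. Every mutant library was far above every wild-type library, and mutant 4 held the most. *Tnc* rose 7.27-fold (log2 fold change 2.86, SE 0.18, edgeR adjusted p = 2.94e-06). It stood at place 78 by p among all genes tested. The antisense gene *8030451A03Rik* shares exon bases with *Tnc* and averaged 86.5 raw counts, and as use of the strand is not given in the sources used here, reads of the pair cannot be told apart. Antisense genes share exon bases with *Fn1* (*Apol7d*, 15.4 raw counts on average) and *Thbs1* (*Gm29233*, 0.75) as well. After the group means were subtracted, *Tnc* followed the sums of platelet (r = 0.64), astrocyte (r = 0.45, mostly *Gja1*) and border macrophage markers (r = 0.42) over the 8 libraries. It ran against the endothelial (r = -0.53), pericyte (r = -0.50) and oligodendrocyte sums (r = -0.39). *Tnc* is also made by glia. Oligodendrocyte markers were lower in mutant libraries, and of the astrocyte markers *Gja1* alone rose, while the others averaged at most 2.10 RPKM in mutant and 2.64 in wild-type libraries and the median log2 fold change of that list was -0.49. Their part in the difference was not tested.

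*Thbs1* (ENSMUSG00000040152) encodes thrombospondin-1, which restrains angiogenesis and activates latent TGF-beta, and lies on chromosome 2 from 118111876 to 118127133. In mutant libraries 1 to 4 it had 4748, 6493, 6049 and 7534 normalized counts, and in wild-type libraries 1 to 4 it had 909, 1303, 1866 and 1006. Wild type 3 stood highest within its group but still far below mutant 1, the lowest mutant library. *Thbs1* rose 4.88-fold (log2 fold change 2.29, standard error 0.22, edgeR adjusted p = 3.62e-05). Without wild type 3 its log2 fold change was 2.54. After the group means were subtracted, *Thbs1* followed the sums of microglia (r = 0.78), smooth muscle (r = 0.69) and platelet markers (r = 0.65) over the 8 libraries and ran against the endothelial sum (r = -0.77). Wild type 3 had the highest microglia sum of its group. Their part in the difference was not tested.

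*Thbs2* (ENSMUSG00000023885), on the minus strand of chromosome 17 from 14665500 to 14694262, encodes thrombospondin-2, a close relative of thrombospondin-1. It went the other way, with 214, 269, 416 and 263 normalized counts in mutant libraries 1 to 4 and 545, 561, 578 and 486 in wild-type libraries 1 to 4. All mutant libraries were below all wild-type libraries, with mutant 3 nearest to them. *Thbs2* fell 1.87-fold (log2 fold change -0.90, standard error 0.18, edgeR adjusted p = 0.00239), and without mutant 3 the log2 fold change was -1.12. In these bulk libraries, fewer cells that make a transcript and less of that transcript per cell cannot be told apart. Pericytes, smooth muscle cells and fibroblasts also make *Thbs2*, and the sums of their markers overlapped between the groups. Of 8 pericyte markers, *Abcc9* (log2 fold change 1.78, edgeR adjusted p = 2.36e-04) and *Kcnj8* (0.81, edgeR adjusted p = 0.0242) rose and none fell, and *Rgs5* gave most of their sum. Of 7 smooth muscle markers, *Tagln* rose (log2 fold change 0.73, edgeR adjusted p = 0.0367) and none fell. After the group means were subtracted, *Thbs2* followed the sums of smooth muscle markers (r = 0.82) and pericyte markers (r = 0.78) over the 8 libraries, also those of microglia (r = 0.70), and ran against those of lymphatic markers (r = -0.91), which is a description with no test. Their part in the difference was not tested.

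**Figure D3:**
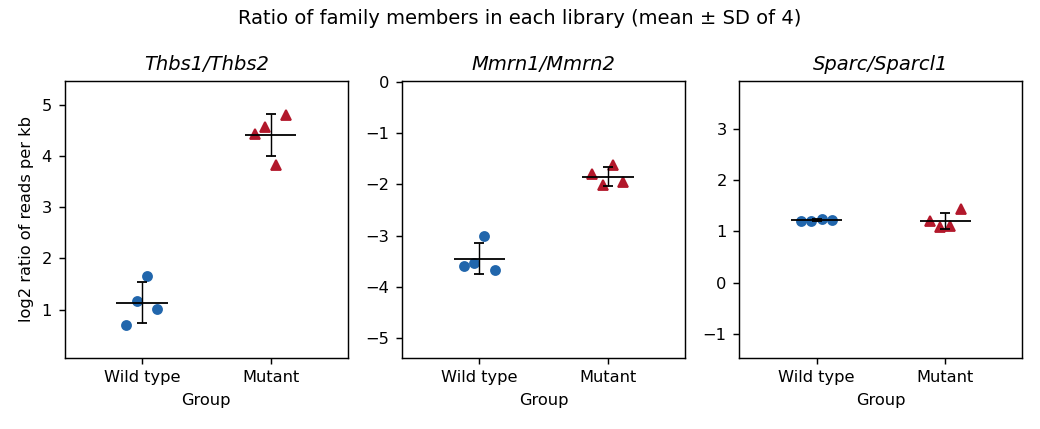
Log2 ratio of reads per kilobase of exon between 2 genes of a family (y axis), in 4 wild-type libraries (circles) and 4 mutant libraries (triangles), with the mean and SD of each group. The axes span equal lengths. *Thbs1*/*Thbs2* and *Mmrn1*/*Mmrn2* do not overlap between the groups and *Sparc*/*Sparcl1* does.

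The ratio of both thrombospondins, which does not depend on how libraries are scaled, differed between the groups. Per kilobase of exon, *Thbs1* held 14.2 to 27.9 times the reads of *Thbs2* in mutant libraries and 1.63 to 3.15 times in wild-type libraries. The log2 ratio averaged 4.41 ± 0.416 in mutant ECs and 1.14 ± 0.397 in wild-type ECs (SD, n = 4 each), which differ by 3.27. The pairs were formed with the changes of these genes known, so the ratio restates them on another scale and is given as a description.

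*Mmrn1* (ENSMUSG00000054641), on chromosome 6 from 60924976 to 60989378, encodes multimerin-1, a large polymer stored in platelets and in ECs. Its normalized counts were 7225, 5055, 5573 and 5976 in mutant libraries 1 to 4 and 1386, 1304, 1629 and 1298 in wild-type libraries 1 to 4. No mutant library came near the wild-type range. *Mmrn1* rose 4.24-fold (log2 fold change 2.08, standard error 0.12, edgeR adjusted p = 1.55e-06) and stood at place 57 by p among all genes tested. Platelets and lymphatic ECs make it too. The platelet marker sums given above overlapped between the groups, and none of the 5 platelet markers tested rose while *Ppbp* fell. *Prox1*, the regulator that defines lymphatic ECs, averaged 2.31 RPKM in mutant and 2.71 in wild-type ECs (edgeR adjusted p = 0.185), while the lymphatic marker sum, mostly *Flt4*, was higher in every mutant library as given above, and *Mmrn1* followed that sum within groups (r = 0.52 over 8 libraries). Their part in the difference was not tested.

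*Mmrn2* (ENSMUSG00000041445) encodes multimerin-2, an endothelial matrix protein that binds the receptors CD93 and CLEC14A and captures VEGF-A. It lies on chromosome 14 from 34375504 to 34404287. Mutant libraries 1 to 4 had 16903, 13627, 11431 and 15592 normalized counts and wild-type libraries 1 to 4 had 11226, 10087, 8774 and 11103. The groups did not overlap, although mutant 3 was close to wild type 1. *Mmrn2* rose 1.40-fold (log2 fold change 0.48, standard error 0.13, edgeR adjusted p = 0.0105). Within groups *Mmrn2* followed the sums of astrocyte (r = 0.85, mostly *Gja1*), lymphatic (r = 0.80, mostly *Flt4*) and endothelial markers (r = 0.55) over the 8 libraries. It ran against those of smooth muscle (r = -0.87), pericytes (r = -0.85) and microglia (r = -0.73). Their part in the difference was not tested. *Mmrn1* gained on *Mmrn2* per kilobase of exon, from a mean log2 ratio of -3.45 ± 0.302 (SD, n = 4) in wild-type to -1.85 ± 0.178 (SD, n = 4) in mutant ECs. *Mmrn2* remained the more abundant of both in every library. For *Sparc* against *Sparcl1* the mean log2 ratios were 1.20 ± 0.160 and 1.22 ± 0.0164 (SD, n = 4 each).

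*Spp1* (ENSMUSG00000029304) encodes osteopontin, an integrin- and CD44-binding phosphoprotein, and lies on chromosome 5 from 104435118 to 104441050. It had 751, 582, 814 and 1206 normalized counts in mutant libraries 1 to 4 and 204, 266, 356 and 302 in wild-type libraries 1 to 4. Mutant 4 was the highest, and even mutant 2, the lowest of its group, exceeded every wild-type library. *Spp1* rose 2.97-fold (log2 fold change 1.57, standard error 0.23, edgeR adjusted p = 3.66e-04). The gene *Gm42793* shares exon bases with *Spp1* on the same strand and averaged 18.4 raw counts, so reads in the shared bases cannot be told apart. Microglia and macrophages can make much osteopontin. Border macrophage markers summed to 14.8, 16.2, 48.0 and 38.2 RPKM in mutant libraries 1 to 4 and to 9.04, 9.07, 27.8 and 14.6 in wild-type libraries 1 to 4, with none of the 6 past the test. Within groups *Spp1* followed these sums (r = 0.75 over 8 libraries after the group means were subtracted). It also followed those of microglia (r = 0.65) and of platelets (r = 0.88), and ran against the endothelial sum (r = -0.84). At each replicate number, both the border macrophage sum and *Spp1* were higher in the mutant library. Mutant libraries 1 and 2 had lower border macrophage sums than wild type 3 and more *Spp1*. The part of these cells in the difference was not tested.

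*Postn* (ENSMUSG00000027750), on chromosome 3 from 54361109 to 54391037, encodes periostin, a matrix protein typical of fibroblasts and mural cells. Its normalized counts were 1690, 1624, 1961 and 1512 in mutant libraries 1 to 4 and 753, 974, 1139 and 1111 in wild-type libraries 1 to 4. The lowest mutant library, mutant 4, lay above wild type 3, the highest of its group. *Postn* rose 1.71-fold (log2 fold change 0.77, standard error 0.13, edgeR adjusted p = 9.75e-04). Mural cell markers are given above with *Thbs2*. The sums of fibroblast markers overlapped between the groups, with 2 of the 8 genes higher and 2 lower at an adjusted p under 0.05, and *Postn* followed them within groups (r = 0.62 over 8 libraries). Their part in the difference was not tested.

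The sample labels carry 3 prefixes, one shared by replicates 1 and 2 of each group, one by replicate 3 and one by replicate 4, and what a prefix stands for is not given. Within prefixes, the mean log2 difference between mutant and wild-type libraries (normalized counts plus 2) ran from 2.58 to 3.16 for *Tnc*, 1.70 to 2.90 for *Thbs1*, 1.77 to 2.20 for *Mmrn1* and 1.19 to 1.99 for *Spp1*. It ran from 0.44 to 0.95 for *Postn*, 0.38 to 0.51 for *Mmrn2* and -1.20 to -0.48 for *Thbs2*, so these 7 genes kept their direction in each prefix. *Fn1* ran from 0.03 to 0.16. *Sparc* (-0.02 to 0.09) and *Sparcl1* (-0.22 to 0.23) took both signs.

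Other genes of the same families moved both ways. Of 22 such genes, 19 were tested, 7 rose, 4 fell and 8 did not pass the test, which is 57.9% called against 44.4% of all genes (the median log2 fold change was 0.48). Of all genes tested, 21.5% rose and 22.9% fell by that rule. Past a log2 fold change of 1 as well, 5 were higher and 4 lower, against 5.90% and 8.05% of all genes. *Tgfbi*, the closest relative of periostin, rose 6.13-fold from 259 ± 92.8 to 1589 ± 569 normalized counts (SD, n = 4, edgeR adjusted p = 8.02e-05). In the thrombospondin family *Comp*, a cartilage matrix protein, rose 2.10-fold (edgeR adjusted p = 2.97e-04), while *Thbs3* (log2 fold change 0.22) and *Thbs4* (0.65) did not pass the test. *Thbs4* did so with the label prefix as a block (edgeR adjusted p = 0.0155).

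The SPARC family held its largest difference outside the 10 genes. *Spock2*, which encodes the proteoglycan testican-2, fell 6.65-fold from 216980 ± 25097 to 32619 ± 15606 normalized counts (SD, n = 4, log2 fold change -2.73, standard error 0.31, edgeR adjusted p = 8.83e-05). *Fstl1*, a secreted SPARC relative, rose 2.23-fold from 6291 ± 373 (SD, n = 4, edgeR adjusted p = 7.05e-05). *Smoc1* fell 2.98-fold from 45.7 ± 19.7 (SD, n = 4, edgeR adjusted p = 0.00319), whereas *Smoc2* did not pass the test (log2 fold change 0.33).

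Tenascins also differed among themselves. Tenascin-R (*Tnr*), a product of oligodendrocytes and neurons, fell 5.44-fold from 345 ± 126 to 63.3 ± 20.0 normalized counts (SD, n = 4, edgeR adjusted p = 1.41e-04), and *Tnn* (tenascin-N) rose 1.68-fold (edgeR adjusted p = 0.0188). *Emilin1*, of the family to which the multimerins belong, rose 1.99-fold (edgeR adjusted p = 2.04e-04). *Smoc1* and *Tnr* are both known from the oligodendrocyte lineage, and *Tnr* also from neurons. Marker sums of oligodendrocytes and of neurons were lower in mutant libraries as given above. The part of these cells in both falls was not tested.

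Of the CCN genes, which encode matricellular proteins named after CYR61, CTGF and NOV, *Ccn1* fell 2.68-fold from 17596 ± 2599 to 6570 ± 1759 normalized counts (SD, n = 4, edgeR adjusted p = 2.12e-04). *Ccn2* rose 2.18-fold from 1525 ± 161 to 3323 ± 600 (SD, n = 4, edgeR adjusted p = 9.16e-05), and *Ccn3* rose 2.85-fold from 106 ± 38.8 to 302 ± 73.4 (SD, n = 4, edgeR adjusted p = 0.00101). Both *Ccn1* and *Ccn2* are common targets of YAP and of serum response factor.

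Receptors and partners of these proteins were mostly higher in mutant ECs. Of 22 genes, 21 were tested, of which 14 rose, 2 fell and 5 did not pass the test, 76.2% called against 44.4% of all genes (median log2 fold change 0.71). Over all genes tested, 21.5% rose and 22.9% fell by that rule. Past a log2 fold change of 1 as well, 7 were higher and 1 lower, against 5.90% and 8.05% of all genes. The genes of this list were chosen with earlier results of these data known. Among integrin chains, *Itgb3* rose 24.7-fold from 304 ± 35.1 to 7505 ± 2560 normalized counts (SD, n = 4, edgeR adjusted p = 7.27e-07). Its partner *Itgav*, with which it forms a receptor for fibronectin, osteopontin, tenascin-C and periostin, rose 2.39-fold from 2627 ± 954 to 6273 ± 844 (SD, n = 4, edgeR adjusted p = 0.00123). *Itga3* rose 3.75-fold (edgeR adjusted p = 4.01e-06) and *Itga8* 3.68-fold (2.73e-04).

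*Itga5* and *Itgb1*, the chains of the classical fibronectin receptor, rose less, by 1.64-fold and 1.31-fold (edgeR adjusted p = 1.37e-04 and 0.00423). *Itga4*, which also binds fibronectin, fell 1.70-fold (edgeR adjusted p = 1.94e-04). *Itgb8* fell 4.02-fold from 77.4 ± 35.8 normalized counts (SD, n = 4, edgeR adjusted p = 0.00316), and oligodendrocyte precursors and astrocytes express it too. *Itgb6* had 21.9 ± 25.7 normalized counts in mutant and 1.45 ± 1.26 in wild-type libraries (SD, n = 4) and was too low to be tested.

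Both receptors of multimerin-2 were higher, *Clec14a* by 2.25-fold (from 4972 ± 786 to 11177 ± 2139 normalized counts, SD, n = 4, edgeR adjusted p = 1.94e-04) and *Cd93* by 1.39-fold (edgeR adjusted p = 0.00448), and *Cd248*, a pericyte and fibroblast protein that also binds it, did not pass the test. *Stab1*, a scavenger receptor that takes up SPARC, rose 2.15-fold (edgeR adjusted p = 1.10e-04). Of the thrombospondin-1 receptors, *Cd47* rose 1.85-fold (edgeR adjusted p = 1.68e-04) and *Cd36* did not pass the test (log2 fold change 0.92, edgeR adjusted p = 0.0912), although it did with the label prefix as a block (edgeR adjusted p = 0.0165). *Tgfb1*, whose latent product thrombospondin-1 can activate, rose 2.22-fold from 5752 ± 151 to 12783 ± 1268 (SD, n = 4, edgeR adjusted p = 5.59e-06).

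**Figure D4:**
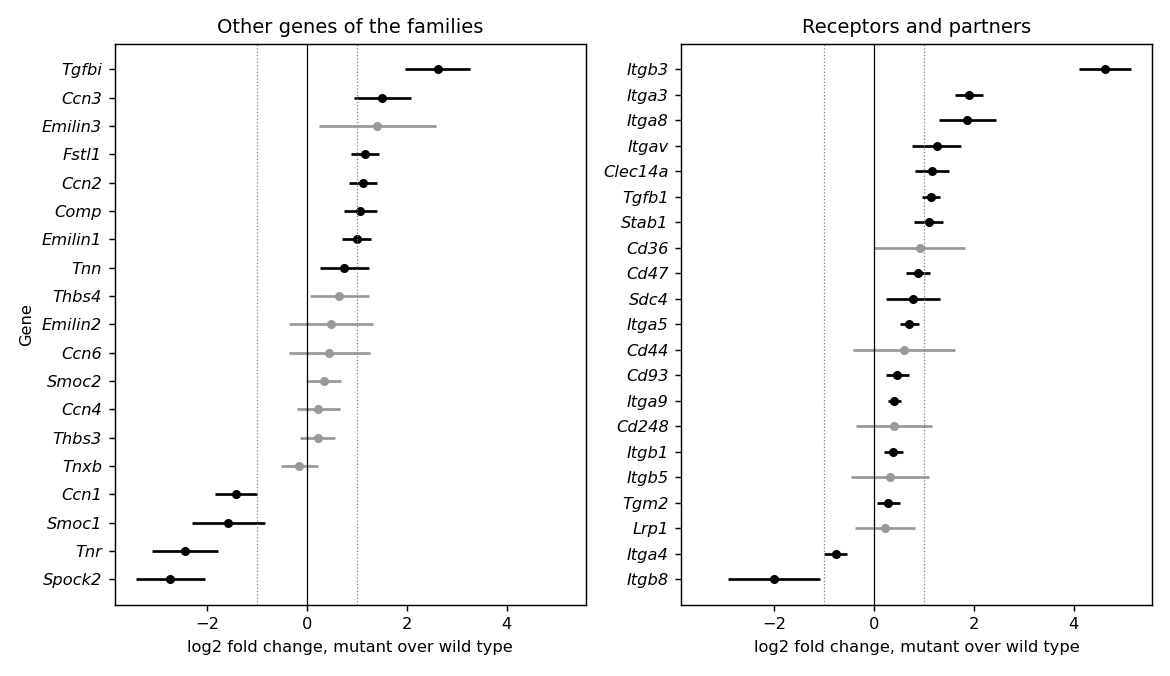
Log2 fold change, mutant over wild type, from edgeR (x axis) with 95% intervals for the tested genes of the same families (left) and for tested receptors and partners (right), over 4 mutant and 4 wild-type libraries. Black marks an adjusted p under 0.05, grey the others, and dotted lines a log2 fold change of 1 in either direction. *Tgfbi* (2.61) and *Itgb3* (4.63) stand at the top and *Spock2* (-2.73) and *Itgb8* at the bottom.

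For each gene, the 2 genes that followed it most closely within groups were listed, by Pearson's r of log2 scaled counts over the 8 libraries after the group means were subtracted. The search covered 11399 other genes, so high values of r arise with ease over 8 libraries and are given as a description. For *Tnc* they were *Blcap* and *Plpp3* (both r = 0.99), for *Thbs1* *Ezh2* (0.97) and *Ftsj3* (0.95), for *Mmrn1* *Pank1* (0.99) and *Dlg4* (0.98), and for *Spp1* *Fosl1* (0.98) and *Notch2* (0.97). They were *Mxd1* and *Ctsk* (both 0.96) for *Postn*, *Tmc6* and *Ndor1* (both 0.99) for *Mmrn2*, and *BC024978* (0.99) and *Bcl9l* (0.98) for *Thbs2*. For the abundant genes they were *Brcc3* and *Ppib* (both 0.99) for *Fn1*, *Prkd2* (0.99) and *Mpzl1* (0.98) for *Sparc*, and *Saraf* and *Gpr21* (both 0.99) for *Sparcl1*. No gene was named for more than 1 of the 10.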

How the data were processed

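Brain ECs of 4 mutant and 4 wild-type pups were analysed, with groups and replicate numbers taken from the sample titles. The authors removed adapters and poor bases with Trimmomatic, aligned reads with STAR to GRCm38 and deposited raw counts per gene, 1 set per library. The counting program, its annotation and its use of strand are not given in the sources used here. The deposited counts divided by DESeq2 size factors were not used.

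From the counts, edgeR 4.0.16 (R 4.3.3) scaled libraries by TMM, kept genes with filterByExpr (minimum count 10) and compared the groups with glmQLFit and glmQLFTest, with no covariate and Benjamini-Hochberg adjustment over all 16887 genes tested. A call is an adjusted p under 0.05, and a second rule adds the fold limit of the study, a log2 fold change beyond 1 in either direction. Normalized counts are counts after TMM scaling, set to the mean library size, and RPKM relates them to exon length and library size. The fit was tested on simulated counts. Libraries of a group differed by more than counting noise (chi-square per degree of freedom 6.70 to 37.1), so none was taken for a second deposit of another. Symbols came from a table of gene names (48970 of 49315 identifiers matched) and promoters from RefSeq. With these depths the spread between pups limits precision, not counting error.

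The genes and lists were chosen with earlier results of these data known. Named were all 10 genes, of the 2 other lists (same families, receptors and partners) every gene past both limits, up to 10 a list, and the 2 genes most like each of the 10. Further genes of those lists were named after their values were seen. The cell type lists covered microglia, border macrophages, platelets, lymphatic ECs, other ECs, mural cells (pericytes and smooth muscle), fibroblasts, neurons, astrocytes and oligodendrocytes. The letters TATAAA and CCAAT, and the 4 promoters shown, were also chosen after seeing the data. Alternatives were DESeq2 1.42.0, RLE and upper quartile scaling, no filter or a mean of at least 100 normalized counts, a block for the replicate number or for the prefix of the label, each library left out, other forms of the ratio, and TPM. Protein sequences were not analysed here.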

Additional observations from a re-analysis of the deposited data

Results flagged for a closer look

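A library far from the others was sought in 26 sets of 4 libraries. These were 20 for the normalized counts of the 10 genes in each group and 6 for the ratios. In 3 sets a library was picked out, where chance gives about 1 in 20 for independent sets. The sets share libraries and are not independent, so 3 of 26 is not read against that rate. All 3 concern wild type 3, which had the lowest normalized counts of its group for *Fn1* (210917), *Sparc* (136888) and *Sparcl1* (45114). Its gap to the next library was 0.94, 0.91 and 0.90 of the range of the group. Among wild-type libraries it also had the lowest sum of endothelial markers (3205 RPKM) and the highest sums of neuron (21.6), microglia (300.3), smooth muscle (98.8), border macrophage (27.8) and platelet markers (9.72 RPKM), and their part in the difference was not tested. Without it, the log2 fold changes were 0.06 for *Fn1*, 0.01 for *Sparc* and 0.03 for *Sparcl1*.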

How the results depend on the processing

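For each of the 10 genes, 15 alternative fits kept the call at an adjusted p under 0.05 or its absence, and the direction except for *Sparc*, whose log2 fold change was -0.0059 with upper quartile scaling. Over these fits the log2 fold change ran from 2.68 to 2.97 for *Tnc*, 2.17 to 2.54 for *Thbs1*, 2.00 to 2.17 for *Mmrn1*, 1.37 to 1.71 for *Spp1*, 0.68 to 0.85 for *Postn*, 0.42 to 0.59 for *Mmrn2* and -1.12 to -0.76 for *Thbs2*. Leaving out 1 library at a time gave 0 to 1 genes lower past a log2 fold change of -1, the 1 being *Thbs2* without mutant 3. When genes under a mean of 100 normalized counts were removed, *Itgb8* was not tested, which left 1 receptor or partner gene lower and 0 lower past that limit. The other counts of calls stayed within 1.5 times. The difference in the *Sparc*/*Sparcl1* ratio ran from -0.0923 (without mutant 4, exact permutation test, p = 0.0286) to 0.0231 (without mutant 2), and took the opposite sign without mutant 2 or 3. The p without mutant 4 is the smallest that the test allows with 1 library left out. That fit was named because its difference was the most extreme. Same-numbered libraries deviated together in 3 of 4 numbers (r = 0.29, 0.22 and 0.34, but -0.0022 for number 4). Of 4 mutant libraries, 2 correlated best with their own number. Numbers 1 and 2 share a label prefix, so this check does not settle whether libraries are paired. The labels do not say which libraries share a litter, and the main fit has no block. The replicate block changed no call of the 10 genes. With it, or with the label prefix as a block, *Thbs4*, *Emilin3*, *Cd36* and *Cd44* passed the test as higher, which made 9 rather than 7 genes of the same families and 16 rather than 14 receptors and partners higher. For the ratios, the exact two-sided permutation test gave p = 0.0286, the smallest that 4 libraries against 4 allow (0.0429 adjusted over 3 ratios), for *Thbs1*/*Thbs2* and *Mmrn1*/*Mmrn2*, whose separation was known when the pairs were formed, and 0.886 for *Sparc*/*Sparcl1*. An exact sign-flip permutation test within the replicate block gave p = 0.125, the smallest that 4 pairs allow, for *Thbs1*/*Thbs2* (difference 3.27) and *Mmrn1*/*Mmrn2* (1.60). TPM gave the same order of levels as RPKM in both groups. Depth did not limit these genes, whose lowest raw count was 169.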
